A study of Mus musculus with 12 samples.

Results

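Removal of extracellular calcium was examined by comparing poly-A RNA from 4 libraries of mouse glial cells kept in calcium-free medium with 4 libraries of vehicle-treated cells. These 8 of the 12 libraries of the study were assigned to their groups by label, and all 43322 genes of the count table were considered, of which 16663 had enough counts to be tested. All cells were wild type, from CD1 mice of postnatal days 3 to 5, and the labels give the frontal cortices of a single mouse as the source of a preparation. They were grown in serum and B27 supplement with 10 ng/ml of epidermal growth factor (EGF), split on day 7 in vitro, and used 3 to 7 days later. The submitters describe them as primary astrocytes. The calcium-free group was held for 60 min in medium without calcium that contained EGTA, a calcium chelator. The control group received vehicle, and whether its medium was exchanged at the same time is not given in the sources used here. Both groups had been grown in the same medium up to the treatment, and whether the calcium-free medium held serum or EGF is not given either.

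Removing calcium from outside a cell acts on several systems at once. Store-operated calcium entry, through STIM sensors of the endoplasmic reticulum (ER) and ORAI channels of the plasma membrane, loses its source. Notch receptors are held together at the cell surface by a calcium-dependent contact between the 2 fragments of the receptor, and chelators are a known laboratory trigger of Notch cleavage, after which the intracellular fragment joins the DNA-binding protein RBPJ and turns on the repressors of the HES and HEY families. Cadherins need calcium to hold neighbouring cells together. Immediate early genes are transcribed within minutes of many stimuli, among them growth factors, calcium signals and mechanical change.

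The libraries held 36.2 to 42.3 M counts. Levels are given as CPM, read counts scaled to normalised library sizes. The edgeR quasi-likelihood test was run on every gene kept, with Benjamini-Hochberg adjustment over the 16663 genes, and a gene was called at an adjusted p under 0.05. Per the series text each group has 4 biological replicates, and p-values measure the spread between these samples. Whether replicates 1 to 3 came from separate cultures is not given in the sources used here, and the spread may be partly technical. Counts of controls 1 to 3 differed by 2.10 to 3.52 times the chi-square that sampling alone gives, and those of control 4 from them by 35.8 to 37.1 times. Calcium-free 2 and 3 differed by 3.64 times, and calcium-free 1 from these by 9.50 and 17.7 times. Calcium-free 4 differed from the rest of its group by 35.1 to 42.6 times. Replicate 4 stood apart in both groups. It held Xist, the RNA of the inactive X chromosome, at 687 to 724 CPM against 0.262 CPM or less elsewhere. Summed Y-linked genes were at 0.21 CPM or less in replicate 4 and at 194 to 217 CPM in replicates 1 to 3. By these genes replicate 4 was female and replicates 1 to 3 were male. The first principal component, with 56.8% of the variance, separated replicate 4 from replicates 1 to 3. The part of sex in this separation was not tested. On the second component, with 23.8%, the controls lay at 10.0 to 12.1 and calcium-free 2, 3 and 4 at -12.5, -18.9 and -13.5. Calcium-free 1 lay between them at 0.49. Results are therefore also given with the replicate number as a block, where this changes a call or moves a count by over 1.5 times.

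In calcium-free medium 404 genes rose (2.42% of genes tested) and 96 fell (0.576%). Most changes were small: 16 of the increases and 33 of the decreases were at least 2-fold. The 16 large increases were all protein-coding, while 19 of the 33 large decreases were long noncoding RNAs and 26 had an average log2 CPM under 1. Hes5, which encodes a repressor downstream of Notch, had the largest increase, and its relative Hes1 and immediate early genes such as Fos and Arc were among the next. All 404 increases were above 0 and all 96 decreases below 0 in each of the 4 comparisons of same-numbered libraries. Among all 16663 genes tested, 3139 were higher and 2586 lower in each of the 4. The 4 calcium-free libraries lay wholly above the 4 controls in 6.85% of genes tested and wholly below them in 3.99%. The 15 largest increases and 15 largest decreases named below were taken from such genes, so their lack of overlap follows from the rule. With the replicate block, 1625 genes were higher (9.75%) and 948 lower (5.69%), and 499 of the 500 calls were shared, the noncoding RNA Mir100hg being the exception (adjusted p = 0.0515 with the block). Counts of called members in the gene lists below are to be read against the shares of all genes in the same fit. In edgeR without the block, 2688 of the 16663 genes had an unadjusted p under 0.05, and DESeq2 without a block called 779 higher and 306 lower. Leaving out 1 of control 1, 2 or 3 or calcium-free 2 or 3 left 95 to 133 genes higher and 10 to 15 lower, whereas without calcium-free 1 there were 538 higher and 363 lower. There were 566 higher and 85 lower without control 4, and 524 higher and 133 lower without calcium-free 4. Increases made up 80.8% of the calls. After scaling by upper quartile factors they made up 70.5%, and this moved the median of all genes from -0.001 to -0.037.

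**Figure D1:**
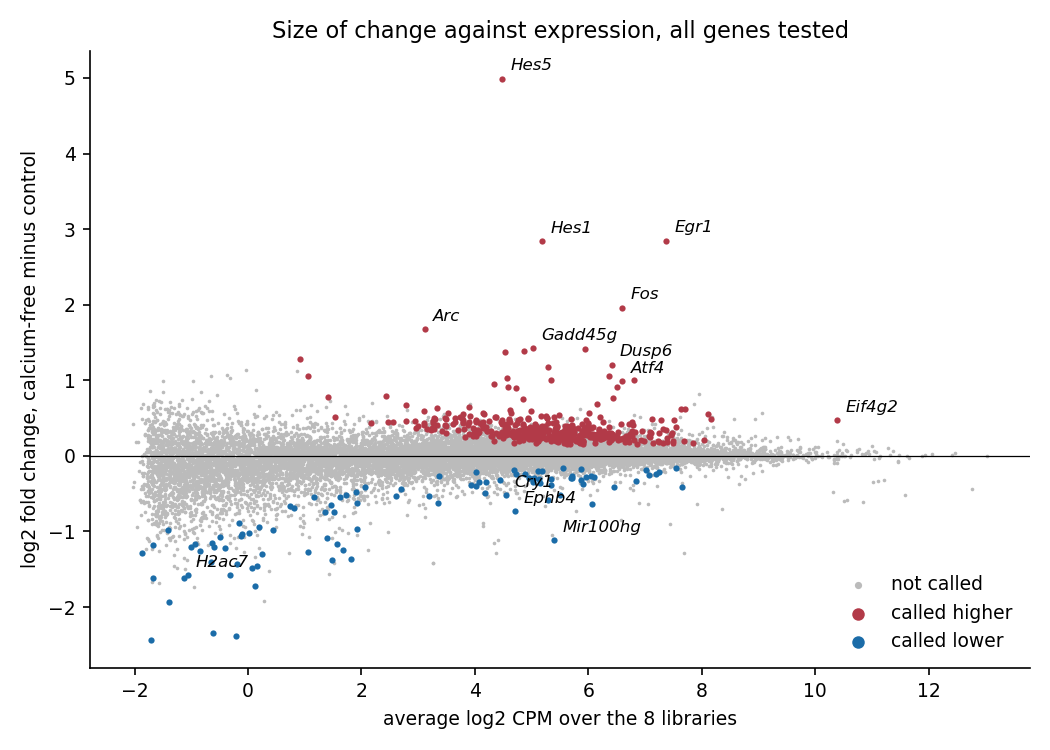
Log2 fold change (calcium-free minus control, vertical axis) against the average log2 CPM over the 8 libraries (horizontal axis) for the 16663 genes tested, each point a gene, with called genes coloured. Hes5, at 4.99, lies above every other gene, and 26 of the 33 decreases of at least 2-fold lie at an average log2 CPM under 1.

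The Notch targets Hes5 and Hes1 were among the genes that rose most. Hes5, a repressor that keeps neural progenitors and glial precursors undifferentiated (gene 15208, GRCm39 chromosome 4, 155042358 to 155046829), was at 1.168, 1.36, 1.58 and 1.33 CPM in controls 1 to 4 and at 36.9, 31.9, 28.2 and 75.5 CPM in the calcium-free libraries. The groups were far apart, and calcium-free 4 was the highest. The log2 fold change was 4.99 ± 0.37 (SE; adjusted p = 4.2e-04), or 31.8-fold. Hes1, the related repressor that oscillates in progenitors (chromosome 16, 29883259 to 29886614), went from 7.64, 7.69, 8.86 and 11.3 CPM to 63.5, 58.0, 54.5 and 78.5 CPM, again without overlap. It rose by 2.84 ± 0.16 (adjusted p = 1.32e-04), or 7.16-fold. Both calls held without any 1 library.

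Promoters of Notch targets were compared for the letters that RBPJ recognises. RefSeq promoter windows (250 bases before to 50 after the gene start, build GRCm38.p6) were searched on both strands for the high-affinity RBPJ core GTGGGAA, which was present in 6.38% of 32851 windows. Hes5 (chr4:154960673-154960972, plus strand) had 2 matches, starting 226 and 83 bases before the start. Hey2 (chr10:30842734-30843033, minus strand), a target of the same family that was not called, also had 2, at 207 and 4 bases before the start. Nrarp (chr2:25180508-25180807, plus strand), which rose, had 0. Of the other windows found, those of Id3, which rose, and Notch3, which was not called, had 0. The 3 windows are shown as a called gene with matches, an uncalled gene with matches and a called gene without. Capitals mark the core, or its reverse complement.
Hes5: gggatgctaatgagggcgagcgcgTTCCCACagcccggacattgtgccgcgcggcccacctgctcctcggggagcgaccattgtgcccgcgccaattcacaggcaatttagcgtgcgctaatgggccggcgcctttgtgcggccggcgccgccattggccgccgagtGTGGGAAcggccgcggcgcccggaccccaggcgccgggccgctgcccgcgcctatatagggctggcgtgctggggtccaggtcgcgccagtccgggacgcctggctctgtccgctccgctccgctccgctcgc
Hey2: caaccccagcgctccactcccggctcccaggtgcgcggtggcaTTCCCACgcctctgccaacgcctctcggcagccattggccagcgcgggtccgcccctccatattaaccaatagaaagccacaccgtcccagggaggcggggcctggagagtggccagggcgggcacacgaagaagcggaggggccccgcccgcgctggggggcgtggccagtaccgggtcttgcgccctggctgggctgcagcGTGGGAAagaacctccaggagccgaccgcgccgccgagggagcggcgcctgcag
Nrarp: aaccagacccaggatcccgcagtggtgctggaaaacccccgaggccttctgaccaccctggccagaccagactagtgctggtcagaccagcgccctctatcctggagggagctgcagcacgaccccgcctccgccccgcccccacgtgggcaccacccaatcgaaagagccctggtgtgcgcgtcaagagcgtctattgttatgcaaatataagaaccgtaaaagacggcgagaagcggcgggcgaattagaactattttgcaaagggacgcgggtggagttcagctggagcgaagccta
A match is a description of the letters only. The shorter core TGGGAA was in 25.6% of windows and gave matches in the same 2 genes of these 3. Windows were found for 5 of the 8 named Notch targets, and Hes1, Hey1 and Heyl are not covered.

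Of 19 Notch targets tested, 5 rose and 0 fell (1 lower at an unadjusted p under 0.05, 0 by DESeq2), with a median of 0.12 against -0.001 for all genes. The 5 are 26.3% of the list, against 2.42% of all genes. Nrarp, which encodes a feedback inhibitor that binds the Notch intracellular complex, went from 19.1, 17.3, 17.3 and 20.4 CPM to 33.2, 31.3, 27.4 and 45.7 CPM, an increase of 0.89 ± 0.15 (adjusted p = 0.0172). Calcium-free 4 was the highest and the groups did not overlap. Id3, an inhibitor of basic helix-loop-helix factors, rose by 0.56 ± 0.12, with 231, 234, 255 and 172 CPM in controls and 341, 346, 350 and 276 CPM in calcium-free medium. Replicate 4 was the lowest in both groups. Hey1, a repressor of the Hes-related family, rose by 0.26 ± 0.04, from 98.3, 103, 101 and 96.1 CPM to 124, 118, 113 and 122 CPM. Its relatives Hey2 (0.14 ± 0.31) and Heyl (0.30 ± 0.65) were low, at 1.25 to 3.50 and 0.0934 to 1.29 CPM, and were not called. With the replicate block 7 targets were higher and 1 lower, adding Myc, the growth regulator (0.28, block adjusted p = 0.00375), Bcl2, a survival gene (0.25, 0.00265), and the lower Snai2, an epithelial-mesenchymal factor (-0.65, 0.0249). That is 36.8% higher and 5.26% lower, against 9.75% and 5.69% of all genes. Nrarp and Hey1 were not called without calcium-free 2 or control 1, 2 or 3 (adjusted p up to 0.0796), and Id3 without any library of replicates 1 to 3 (up to 0.166).

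**Figure D2:**
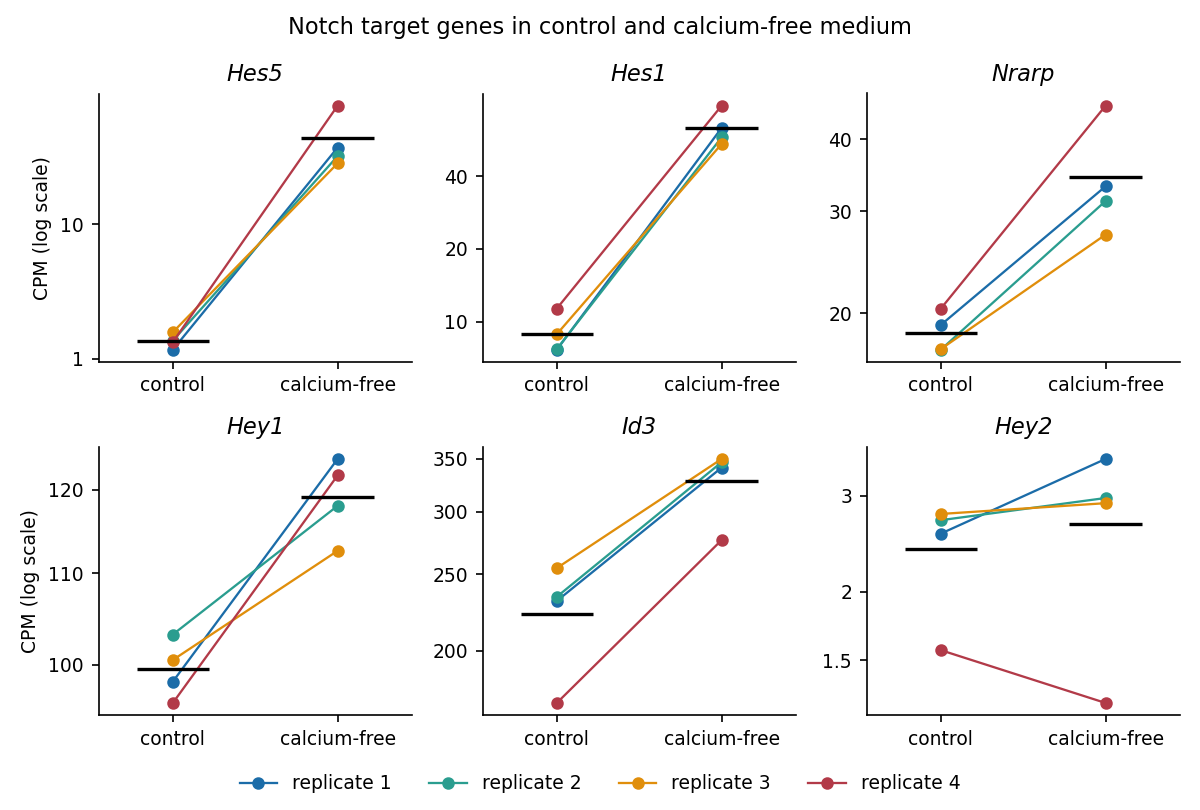
CPM on a log axis of 6 Notch targets in the 4 control and 4 calcium-free libraries, with lines joining libraries of the same replicate number and black bars at the group means. Hes5 rises from near 1 CPM to between 28.2 and 75.5 CPM, whereas Hey2 lies between 1.25 and 3.50 CPM with overlapping groups.

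Few genes of the Notch machinery were called. Of 37 receptors, ligands, processing enzymes and coactivators, 2 rose and 0 fell (3 lower at an unadjusted p under 0.05, 1 by DESeq2), with a median of 0.05. The 2 are 5.41% of the list, against 2.42% of all genes. Maml1, a coactivator of the Notch transcription complex, went from 13.4, 14.9, 13.9 and 14.5 CPM to 20.2, 21.7, 22 and 20.1 CPM (0.57 ± 0.06, adjusted p = 0.00268), a separation several times the spread within a group. Itch, a ubiquitin ligase that acts on Notch among other substrates, rose by 0.25 ± 0.04, but not without calcium-free 2 or 3 or control 1 or 3 (adjusted p up to 0.0875). Notch1, the receptor, was at 286, 277, 287 and 342 CPM in controls and at 316, 347, 402 and 421 CPM in calcium-free medium. The groups overlapped, control 4 being high, and the log2 fold change of 0.32 ± 0.10 was called with the block only (adjusted p = 0.00256). Dll1, a Notch ligand, was at -0.55 ± 0.25, from 13.3, 12.6, 13.6 and 20.7 CPM to 9.26, 7.89, 8.22 and 15.9 CPM, and was likewise called with the block only (3.46e-04). Each calcium-free value lay below the control of its number. The ligand gene Jag1 (0.21 ± 0.05, 0.00351 with the block), Maml2 and Tle3 were also higher and the ligase gene Mib2 lower with the block, 6 and 2 members in all. These are 16.2% and 5.41%, against 9.75% and 5.69% of all genes. Notch2 was at 0.31 ± 0.13, Notch3 at 0.09 ± 0.14 and Rbpj at 0.06 ± 0.04, with no call in either fit.

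Immediate early transcription factors supplied many of the larger increases. Of 27 tested, 9 rose and 0 fell (1 lower at an unadjusted p under 0.05, 0 by DESeq2), and the median was 0.32. The 9 are 33.3% of the list, against 2.42% of all genes. Egr1, a zinc finger factor induced by growth factor and stress signals (chromosome 18, 34994260 to 34998009), was at 43.9, 47.3, 42.4 and 28.7 CPM in controls and at 281, 308, 348 and 231 CPM in calcium-free medium. The lowest calcium-free library was thus well above the highest control, and the gene rose by 2.85 ± 0.18 (adjusted p = 2.11e-04), or 7.20-fold. Fos, a subunit of the AP-1 factor, went from 47.7, 47.1, 35.8 and 27.2 CPM to 187, 155, 170 and 102 CPM (1.96 ± 0.23, adjusted p = 0.00512). Replicate 4 was the lowest library of both groups. Its AP-1 partners Junb and Jun rose by 1.05 ± 0.18 and 0.63 ± 0.09. Csrnp1, a nuclear protein of the early response, rose by 1.37 ± 0.17 and Ier2 by 1.03 ± 0.07. Srf, the factor that itself drives many early genes, rose by 0.38 ± 0.07, the small MAF gene Mafk by 0.41 ± 0.06, and the clock-linked repressor gene Bhlhe40 by 0.41 ± 0.07. Junb, Jun, Srf, Mafk and Bhlhe40 were not called without some of calcium-free 2 and 3 and control 1, 2 and 3 (adjusted p up to 0.101), and the other 4 kept their calls without any 1 library.

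Several classical members of the group were not called. Nr4a1, an orphan nuclear receptor, was at 17.5, 18.9, 15.8 and 12.3 CPM in controls and at 28.9, 19.5, 19.7 and 18.6 CPM in calcium-free medium, where calcium-free 1 was far above the other 3. Its log2 fold change of 0.43 ± 0.17 had an adjusted p of 0.251, and 0.0458 with the block. Fosb was at 0.18 ± 0.10, Nr4a3 at 0.27 ± 0.12, Egr3 at -0.16 ± 0.39 and Npas4, a neuronal activity factor, at -0.25 ± 0.19, with no call in either fit. Egr2 (0.65 ± 0.24) and Atf3, a stress factor (0.48 ± 0.15), were called with the block only (adjusted p = 0.00324 and 0.00141). The block called 15 members higher, adding also Fosl2, Klf6 and Maff, and 1 lower, Ier5 (55.6% and 3.7%, against 9.75% and 5.69% of all genes). Differences between members were not tested.

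Immediate early effectors, the enzymes, RNA-binding proteins and signalling brakes made in the first hour, rose in 11 of 28 cases, with 0 lower (3 lower at an unadjusted p under 0.05, 0 by DESeq2) and a median of 0.26. The 11 are 39.3% of the list, against 2.42% of all genes. Arc, a cytoskeletal protein of active synapses, was at 3.72, 4.86, 3.93 and 3.95 CPM in controls and at 15.2, 12.7, 12.4 and 12.4 CPM in calcium-free medium, with calcium-free 1 the highest. It rose by 1.68 ± 0.11 (adjusted p = 2.58e-04). Gadd45g, a growth arrest gene, went from 19.4, 15.6, 15.8 and 20.0 CPM to 52.2, 44.5, 45.1 and 48.1 CPM and rose by 1.42 ± 0.10. No control reached the lowest calcium-free value of either gene, but both are among the 15 largest increases, which were picked for groups that do not overlap. Zfp36 and Zfp36l2, whose products speed the decay of AU-rich messenger RNAs, rose by 1.18 ± 0.15 and 1.00 ± 0.07. Rgs1, a brake on signalling by G protein-coupled receptors, rose by 1.29 ± 0.18 from a low level, with 0.747 to 1.34 CPM in controls and 2.46 to 2.97 CPM in calcium-free medium. Its relative Rgs16 rose by 0.69 ± 0.13. Ier3, a survival gene, rose by 0.95 ± 0.21, Btg2, an antiproliferative gene, by 0.75 ± 0.07, Trib1, a pseudokinase gene, by 0.59 ± 0.11, and Tiparp, a mono-ADP-ribosyltransferase gene, by 0.29 ± 0.05. Ppp1r15a, which directs dephosphorylation of the translation factor eIF2alpha, rose by 0.91 ± 0.08. Rgs16, Trib1 and Tiparp were not called without calcium-free 2 or 3 or control 1, 2 or 3, and Ier3 without any library of replicates 1 to 3 (adjusted p up to 0.162). With the block 18 members were higher and 3 lower, the latter being Gadd45a, Rgs2 and Ifrd1 (64.3% and 10.7%, against 9.75% and 5.69% of all genes). Rgs1, Ppp1r15a, Ier3, Btg2, Rgs16, Trib1 and Tiparp were singled out after their values were seen.

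Feedback regulators of MAP kinase signalling, which damp the pathway below EGF receptors, rose in 6 of 22 cases and fell in 1, with a median of 0.23. That is 27.3% higher and 4.55% lower, against 2.42% and 0.576% of all genes. Dusp6, a phosphatase specific for ERK, was at 46.8, 53, 53.9 and 52.3 CPM in controls and at 121, 120, 127 and 107 CPM in calcium-free medium. The spread within each group was small beside the gap between them, and the gene rose by 1.21 ± 0.06 (adjusted p = 1.32e-04). Spry4, an inhibitor of receptor tyrosine kinase signals, rose by 0.76 ± 0.04, from 62.7, 64.9, 68.5 and 62.0 CPM to 109, 108, 110 and 110 CPM, and its relative Spry2, chosen after its values were seen, by 0.91 ± 0.09. Dusp1, a nuclear phosphatase of the early response, rose by 1.38 ± 0.20, from 16.4, 17.4, 18.8 and 12.4 CPM to 47.0, 45.7, 50.0 and 26.6 CPM. Replicate 4 was again the lowest in both groups. Dusp4 rose by 0.29 ± 0.06 and Dusp16 by 0.26 ± 0.04, both chosen after their values were seen. Dusp10, a phosphatase that prefers the stress kinases JNK and p38, fell by 0.62 on the log2 scale, from 12.2, 12.1, 11.9 and 12.9 CPM to 8.24, 7.49, 6.33 and 9.83 CPM. Dusp1 was not called without control 1 or 2 (adjusted p up to 0.0535), nor Dusp10 and Dusp16 without calcium-free 2 or 3 or control 1, 2 or 3 (up to 0.117), and Dusp4 was called without calcium-free 4 alone (up to 0.138). With the block 11 members were higher, among them Spry1, Spred1 and Errfi1, and 1 lower (50% and 4.55%, against 9.75% and 5.69% of all genes). None of 17 growth factor ligands was called by edgeR without the block or by DESeq2 (2 higher and 2 lower at an unadjusted p under 0.05, and 4 higher with the block, Hbegf, Ereg, Nrg1 and Fgf1). The 4 are 23.5% of the ligands, against 9.75% of all genes.

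**Figure D3:**
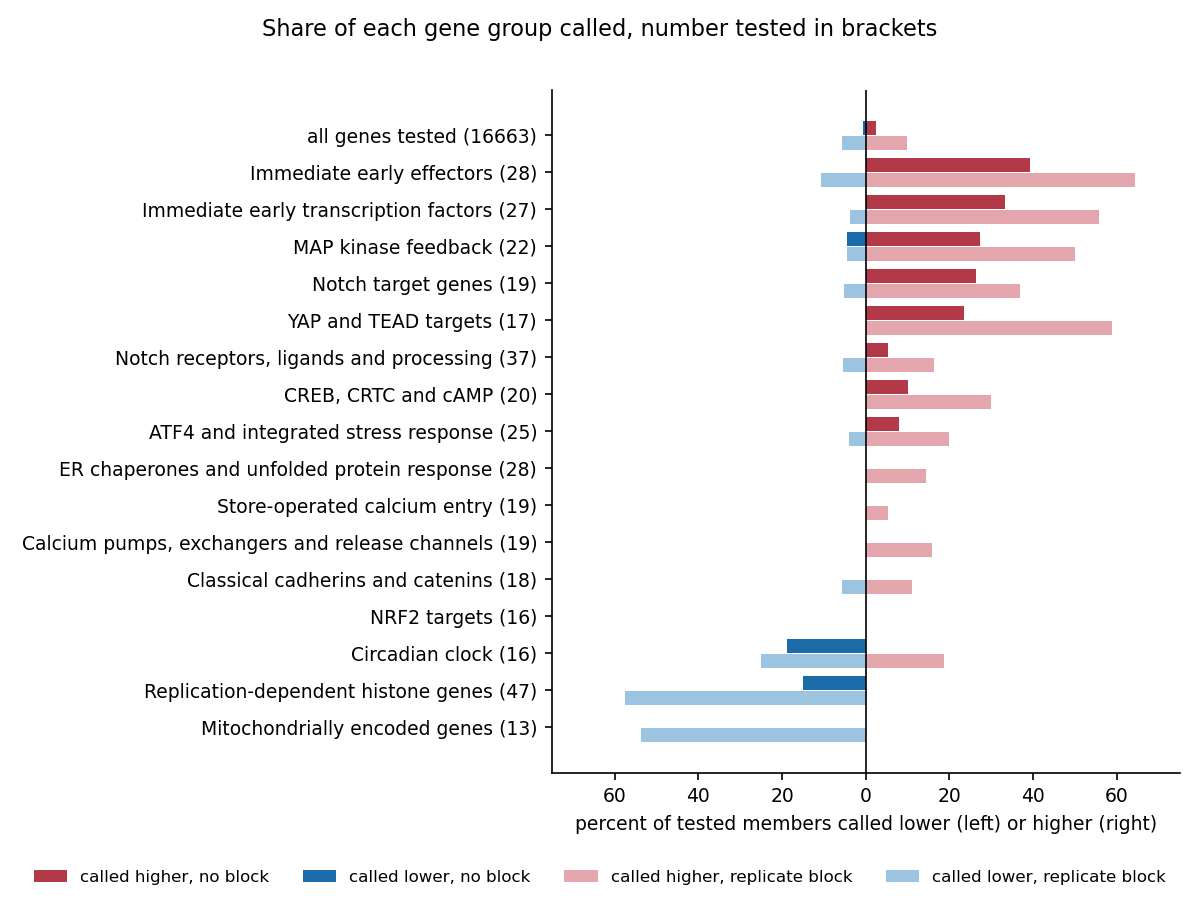
Percent of the tested members of 17 gene groups called lower (left of 0) or higher (right of 0), with dark bars for the fit without a block and light bars for the fit with the replicate number as a block. Immediate early effectors reach 39.3% higher without the block, against 2.42% of all genes, and store-operated calcium entry has no dark bar.

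Targets of YAP and TEAD, the factors that read cell shape and density through the Hippo pathway, rose in 4 of 17 cases, with 0 lower (0 also at an unadjusted p and by DESeq2) and a median of 0.20. The 4 are 23.5% of the list, against 2.42% of all genes. The median was 0.12 in the fit with the block once the trend with exon length was removed. Amotl2, a scaffold that holds YAP in the cytoplasm, was at 25.8, 28.4, 29.7 and 24.4 CPM in controls and at 57.1, 59.1, 63.1 and 37.7 CPM in calcium-free medium, the last being replicate 4. It rose by 1.00 ± 0.15 (adjusted p = 0.0117). Ajuba, a LIM protein of cell junctions, rose by 0.44 ± 0.04, and Nuak2, a kinase of the same pathway, by 0.48 ± 0.08. The Hippo kinase gene Lats2 rose by 0.30 ± 0.05 and Lats1, outside the list, by 0.51 ± 0.05. With the block 10 were higher (58.8%, against 9.75% of all genes), among them the matrix proteins Ccn1 and Ccn2. Ccn1 went from 189, 198, 213 and 120 CPM to 351, 343, 390 and 186 CPM (0.82 ± 0.24, block adjusted p = 2.19e-06), each library above the control of its number although replicate 4 brings the groups into overlap. Amotl2 was not called without calcium-free 2 or control 1 or 2, nor Nuak2 and Lats2 without calcium-free 2 or 3 or control 1, 2 or 3 (adjusted p up to 0.0879). Nuak2, Lats1, Lats2 and Ccn1 were chosen after their values were seen. Among 18 targets of BMP and TGF-beta, Smad7, an inhibitory SMAD, rose by 0.57 ± 0.07 and Skil, a SMAD corepressor, by 0.32 ± 0.06, with 0 lower (0 also at an unadjusted p and by DESeq2). Of 17 Wnt targets, the ligase gene Znrf3 alone rose, by 0.33 ± 0.07. Skil was not called without calcium-free 2 or 3 or control 1, 2 or 3, and Znrf3 was called without calcium-free 4 alone (up to 0.148). The BMP and Wnt lists thus had 11.1% and 5.88% higher, against 2.42% of all genes. With the block the BMP list had 4 higher (22.2%) and the Wnt list 3 higher (17.6%) and 1 lower (5.88%). Of all genes 9.75% were then higher and 5.69% lower.

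Genes that handle calcium were mostly not called. This held for most genes tested, of which 2.42% rose and 0.576% fell (9.75% and 5.69% with the block). Of 19 genes of store-operated entry, 0 were called by edgeR (2 higher at an unadjusted p under 0.05, 1 by DESeq2), with a median of 0.05. Stim1, the calcium sensor of the ER, was at 57.5, 56.2, 62.3 and 67.3 CPM in controls and at 58.9, 62.2, 63.0 and 74.9 CPM in calcium-free medium (0.09 ± 0.09, adjusted p = 0.728). The groups overlapped. Stim2 was at 0.11 ± 0.09, the channel gene Orai1 at -0.09 ± 0.07, Orai3 at 0.01 ± 0.08 and Saraf, an inhibitor of the entry, at 0.01 ± 0.07. Orai2, another channel subunit, went from 14.4, 13.9, 15.5 and 15.6 CPM to 16.5, 18.4, 19.9 and 17.6 CPM, with no overlap, and was called with the block only (0.29 ± 0.07, adjusted p = 0.00631). Of 19 pumps, exchangers and release channels, 0 were called (4 higher at an unadjusted p under 0.05, 3 by DESeq2). Atp2a2, the SERCA2 pump of the ER, was at 0.11 ± 0.04 and Atp2b1, a plasma membrane pump, at 0.14 ± 0.04, both called with the block only (adjusted p = 0.0269 and 0.02), as was the exchanger gene Slc8a1.

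Genes through which calcium signals act were mostly not called, and their few calls are to be read against the 2.42% of all genes that rose (9.75% higher with the block). Among 14 genes of calcineurin and NFAT, 2 rose, Nfatc3 by 0.28 ± 0.04 and Nfat5, the tonicity-responsive factor, by 0.38 ± 0.07, and Rcan1, a calcineurin inhibitor and target, was at 0.09 ± 0.09. Among 20 genes of CREB, its CRTC coactivators and cAMP signalling, Creb1 rose by 0.30 ± 0.05 and Crtc3 by 0.29 ± 0.05, with 6 higher in the block. Neither list had a lower member (0 also at an unadjusted p and by DESeq2). The shares higher were 14.3% and 10%, against 2.42% of all genes, and 14.3% and 30% with the block, against 9.75%. Nfatc3, Creb1 and Crtc3 were not called without calcium-free 2 or 3 or control 1, 2 or 3, nor Nfat5 without calcium-free 2 or control 1, 2 or 3 (adjusted p up to 0.0871). Of 31 receptors and phospholipases coupled to calcium in astrocytes, 0 were called (5 higher and 1 lower at an unadjusted p under 0.05, 2 higher by DESeq2), and 6 were higher and 1 lower with the block, among them the histamine receptor gene Hrh1 (0.55 ± 0.14) and the purine receptor gene P2ry2 (0.33 ± 0.09). No member was called among 22 voltage-gated and other channels, 21 calmodulin and CaM kinase genes, 21 S100 and annexin genes and 11 genes of mitochondrial calcium uptake, where unadjusted p under 0.05 was reached by 3, 3, 0 and 1 and DESeq2 called 2, 2, 0 and 0. Among all 16663 genes tested, 2688 had an unadjusted p under 0.05, and DESeq2 called 779 higher and 306 lower. With the block these lists had 1 or 2 members called each.

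Most genes of the stress lists were not called, and 2.42% of all genes rose (9.75% higher with the block). Atf4, whose product carries out the integrated stress response (gene 11911, chromosome 15, 80139385 to 80141746), went from 63.3, 67.4, 66.5 and 62.5 CPM to 142, 125, 127 and 121 CPM. The groups were well apart and the gene rose by 0.99 ± 0.06 (adjusted p = 1.32e-04), or 1.98-fold. Of the 25 genes of its list tested, Cebpg, a partner of ATF4, was the other member that rose, by 0.28 ± 0.06, and the median was 0.01, or -0.03 with upper quartile factors, which put all genes at -0.04. It was not called without calcium-free 2 or 3 or any 1 control (adjusted p up to 0.134). Ddit3, which encodes the proapoptotic factor CHOP, was at 13.6, 13.7, 13.6 and 12.1 CPM in controls and at 16.5, 13.4, 14.1 and 10.8 CPM in calcium-free medium (0.04 ± 0.12). With the block 5 were higher, adding Sesn2, Slc3a2 and Gdf15, and 1 lower, Ddit4. Of 28 ER chaperones and genes of the unfolded protein response, 0 were called (3 higher and 1 lower at an unadjusted p under 0.05, 1 higher by DESeq2). Hspa5, the ER chaperone BiP, was at 828, 831, 804 and 832 CPM in controls and at 880, 899, 897 and 871 CPM in calcium-free medium, and was called with the block only (0.11 ± 0.04, adjusted p = 0.0218). The others added by the block were Manf, Dnajc3 and Atf6. Xbp1 was at 0.03 ± 0.08 and Herpud1, of ER-associated degradation, at 0.04 ± 0.05. Dnajb1 rose by 0.20 ± 0.04 among 17 heat shock genes, 4 with the block, but not without any library of replicates 1 to 3 (up to 0.117), and Mtf1, the metal-response factor, rose by 0.47 ± 0.07 among 8 metallothionein and zinc genes. Mt2 of the metallothionein and zinc list was lower with the block. No NRF2 target of 16 was called by edgeR with or without the block or by DESeq2, and 0 reached an unadjusted p under 0.05.

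Among 25 inflammatory and NF-kB targets, 2 rose and 0 fell (1 lower at an unadjusted p under 0.05, 0 by DESeq2). That is 8% higher, against 2.42% of all genes. Socs3, an inhibitor of cytokine receptors, went from 39.8, 34.2, 30.4 and 29.2 CPM to 99.97, 82.0, 84.2 and 89.1 CPM and rose by 1.41 ± 0.10 (adjusted p = 4.2e-04). Tnfaip3, a brake on NF-kB, rose by 0.44 ± 0.09, a call that held without calcium-free 4 alone (up to 0.166). With the block 7 were higher, among them Nfkbia, Cebpb and Cebpd, and 1 lower, Nfkbiz. These are 28% and 4%, against 9.75% and 5.69% of all genes.

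The lists of adhesion genes had 0 calls by edgeR without the block. They are short, and the shares of all genes were also small, with 2.42% higher and 0.576% lower. With the block 9.75% of all genes were higher and 5.69% lower. Of 18 cadherins and catenins, 0 were called (2 higher at an unadjusted p under 0.05, 2 by DESeq2). Cdh2, N-cadherin, was at 861, 834, 826 and 840 CPM in controls and at 838, 861, 895 and 873 CPM in calcium-free medium (0.05 ± 0.04), and Ctnnb1, beta-catenin, was at 0.06 ± 0.05. The block called Cdh6 and Cdh11 higher and Cdh22 lower. None of 20 integrin and focal adhesion genes or 15 junction genes was called (1 of each at an unadjusted p under 0.05, 0 and 1 by DESeq2), with Gja1, the connexin of astrocytes, at -0.04 ± 0.11. The block called Itga2, Itga3 and Tjp1 higher. Of 26 actin and SRF targets, 0 were called (3 at an unadjusted p under 0.05, 2 by DESeq2), and Zyx, Rhob and Rnd3 were higher with the block.

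Clock and metabolic genes supplied both directions. Of 16 clock genes, 3 fell and 0 rose (1 higher at an unadjusted p under 0.05, 1 by DESeq2). That is 18.8% lower, against 0.576% of all genes. Cry1, a core repressor of the clock, was at 26.1, 27.3, 27.8 and 28.6 CPM in controls and at 19.1, 20.0, 18 and 19.5 CPM in calcium-free medium, a fall without overlap of -0.52 ± 0.05 (adjusted p = 0.0026). Cry2, chosen after its values were seen, was at -0.29 ± 0.05 and Nr1d1, which encodes REV-ERBalpha, at -0.41 ± 0.06. Both lost their call without calcium-free 2 or 3 or control 1, 2 or 3 (adjusted p up to 0.094). With the block 4 were lower, adding Dbp, and 3 higher, Nfil3, Clock and Bmal1. These are 25% and 18.8%, against 5.69% and 9.75% of all genes. Of 19 genes of glycolysis and hypoxia, Pfkfb3, which makes the activator of phosphofructokinase, rose by 0.35 ± 0.05 and Hk2, a hexokinase, by 0.29 ± 0.04, the latter not without calcium-free 2 or 3 or control 1 or 2 (up to 0.0632). In this list 10.5% rose, against 2.42% of all genes. With the block 10.5% were higher and 5.26% lower, the latter being Pfkfb4, against 9.75% and 5.69% of all genes. The median of the list was 0.33 in the replicate 1 pair and -0.10, -0.13 and -0.09 in pairs 2 to 4. Pdk1, a hypoxia-regulated kinase chosen after its values were seen, was at 32.4, 52.9, 51.4 and 65.1 CPM in controls, control 1 being the low one, and at 57.2, 53.7, 45 and 48 CPM in calcium-free medium. Mcl1, a survival gene, rose by 0.39 ± 0.06 and Sesn1, a p53 target, fell by 0.26 on the log2 scale among 17 genes of p53 and cell death, neither called without calcium-free 2 or 3 or control 1, 2 or 3 (up to 0.0868). That list had 5.88% higher and 5.88% lower, against 2.42% and 0.576% of all genes. The block gave 3 higher and 5 lower there (17.6% and 29.4%, against 9.75% and 5.69%). Sc5d, a sterol desaturase, rose among 23 genes of cholesterol synthesis, by 0.25 ± 0.04, with the same exceptions (up to 0.0804). It was the only member called without the block (4.35%, against 2.42% of all genes), and the median of the list was -0.04. With the block 1 was higher and 3 were lower, Hmgcs1, Fdft1 and Mvk (4.35% and 13%, against 9.75% and 5.69%). Irs2, the insulin receptor substrate, chosen after its values were seen, rose by 0.62 ± 0.07. Translation genes included Eif4g2, an initiation factor used for cap-independent initiation, from 1089, 1130, 1106 and 1145 CPM to 1534, 1586, 1565 and 1517 CPM (0.47 ± 0.04), and Upf2, of nonsense-mediated decay, at 0.55 ± 0.07. These 2 genes were chosen after their values were seen.

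**Figure D4:**
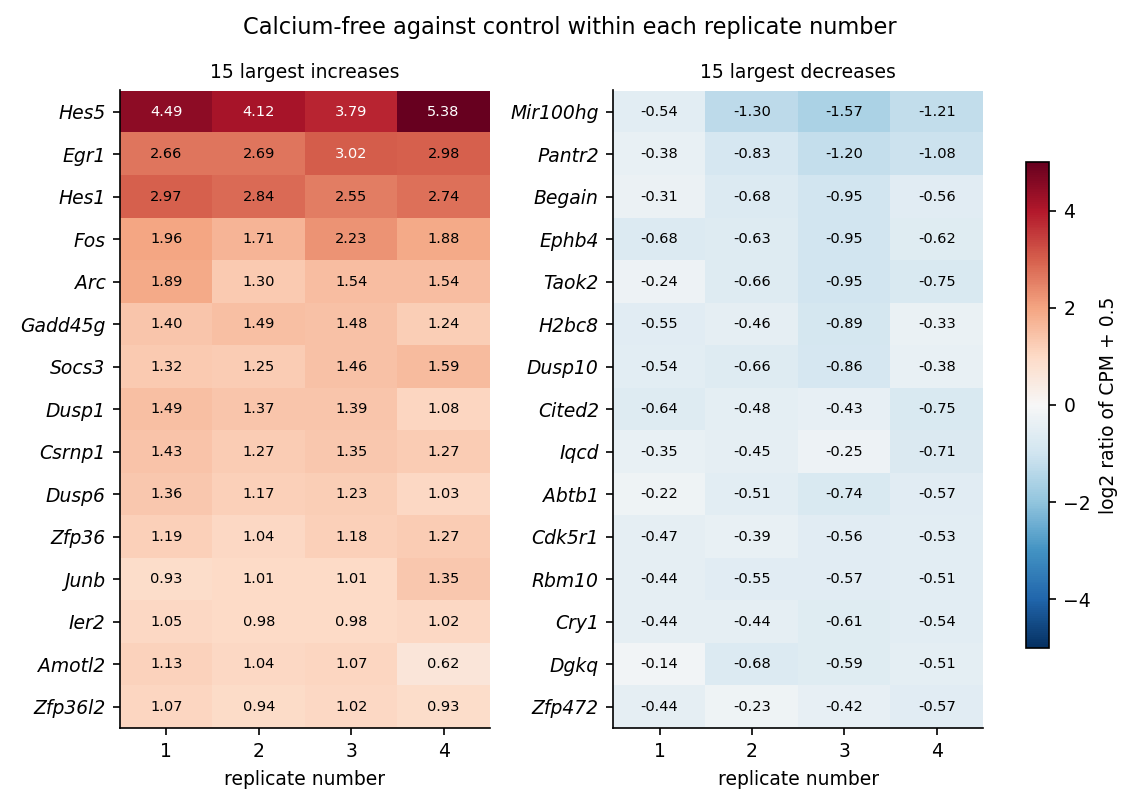
Log2 ratio of CPM plus 0.5, calcium-free over control, within each replicate number (columns) for the 15 largest increases and 15 largest decreases (lines of the map), coloured by size and direction. The genes were picked for groups that do not overlap. That rule alone puts every ratio of the increases above 0 and every ratio of the decreases below 0. Mir100hg is at -0.54 in pair 1 and at -1.57 in pair 3.

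The largest decreases named by size were smaller than the increases. Both sets were picked for groups that do not overlap. Mir100hg, a noncoding host transcript of microRNAs, was at 55.2, 53.4, 50.8 and 70.0 CPM in controls and at 37.9, 21.4, 16.8 and 29.9 CPM in calcium-free medium (-1.12 ± 0.23, adjusted p = 0.0377), with calcium-free 1 nearest to the controls. Pantr2, a noncoding neighbour of the Pou3f3 gene, was at -0.96 ± 0.20. Ephb4, an ephrin receptor, went from 32.7, 29.4, 33.1 and 35.4 CPM to 20.3, 18.8, 16.9 and 22.8 CPM, with no overlap, and fell by 0.73 on the log2 scale (adjusted p = 0.00786). Cited2, which competes with HIF for its coactivators, fell by 0.58, Rbm10, a splicing regulator, by 0.52, and Taok2, a kinase upstream of stress MAP kinases, by 0.64. Begain (-0.74), Abtb1 (-0.54), Cdk5r1, the CDK5 activator (-0.53), Iqcd (-0.55), Dgkq, a diacylglycerol kinase (-0.49), and Zfp472 (-0.48) completed the list besides Dusp10, Cry1 and the histone gene H2bc8. Ephb4, Rbm10 and Cry1 kept their calls without any 1 library. The others did not without calcium-free 2 or 3 or control 1, 2 or 3, nor, for Mir100hg, Cdk5r1, Iqcd and Pantr2, without control 4, for Iqcd and Pantr2 without calcium-free 4, and for Cdk5r1 without calcium-free 1 (adjusted p up to 0.157).

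Replication-dependent histone genes, whose messages lack the usual poly-A tail, lay mostly below 0. Of 47 tested, 7 fell and 0 rose (0 higher also at an unadjusted p and by DESeq2), 46 lay below 0 and the median was -0.53. The 7 are 14.9% of the list, against 0.576% of all genes. H2bc4 was at 48.4, 43.2, 42.7 and 48.3 CPM in controls and at 35.9, 34.1, 31.3 and 39.1 CPM in calcium-free medium (-0.38 ± 0.08). H2bc8 went from 4.84, 4.07, 4.89 and 4.32 CPM to 3.14, 2.82, 2.41 and 3.33 CPM. Neither gene's groups overlapped. H2bc18 (-1.45 ± 0.23), H2ac7 (-1.58 ± 0.28), H3c4 (-1.22 ± 0.22), H4c17 (-1.06 ± 0.22) and H4c18 (-1.04 ± 0.21) were below 2 CPM in every library. With the block 27 were lower (57.4%, against 5.69% of all genes). H2bc23 and H2bc24 (-1.42 ± 0.34 each) were among these and held counts within 0.254% of each other in every library, so they are 1 uncertain measurement. H2ac7 and H2bc18 were not called without calcium-free 2 or control 1, 2 or 3, H2bc8 and H3c4 not without those or calcium-free 3, and H2bc4, H4c17 and H4c18 not without any of those or control 4 (adjusted p up to 0.144). Except for H2bc8, these histone genes were chosen after their values were seen. The 13 proliferation markers had 0 calls (0 also at an unadjusted p and by DESeq2) and a summed level of 2111 to 2867 CPM in controls and 2101 to 2821 CPM in calcium-free medium. Bub1 of these markers was higher with the block.

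Noncoding RNAs of the nucleus and transcripts of the mitochondria lay mostly below 0, with unequal values between libraries. Among 15 nuclear noncoding RNAs, Mir100hg was the member called lower, 0 were higher (0 also at an unadjusted p and by DESeq2), and the median was -0.57. At an unadjusted p under 0.05, 8 were lower, and DESeq2 called 2. With the block Mir100hg was not called and 2 others were lower, Kcnq1ot1, which silences its imprinted neighbours, and Mir9-3hg, a microRNA host transcript. Neat1, the scaffold of paraspeckles, was at 318, 285, 300.3 and 264 CPM in controls and at 238, 88.4, 56.7 and 94.0 CPM in calcium-free medium, and was not called (-1.29 ± 0.38, adjusted p = 0.118, 0.13 with the block). Calcium-free 1 held more than the other 3 of its group. Rhof, which was not called either, likewise had its highest calcium-free value in library 1, with 21.0 CPM in calcium-free 1 and 10.4, 6.75 and 11.6 CPM in calcium-free 2, 3 and 4. The median ratio of the noncoding list was -0.04 in pair 1 and -0.35, -0.42 and -0.48 in pairs 2 to 4. The 13 mitochondrially encoded genes had 0 calls (11 lower at an unadjusted p under 0.05, 5 by DESeq2, 7 with the block), all lay below 0 and the median was -0.48. The 7 are 53.8% of them, against 5.69% of all genes. ND1, a subunit of complex I, was at 2512, 2337, 2107 and 1891 CPM in controls and at 1949, 1523, 1171 and 1145 CPM in calcium-free medium. Mitochondrially encoded genes took 2.99%, 2.85%, 2.64% and 2.46% of all counts in controls and 2.73%, 1.93%, 1.69% and 1.56% in calcium-free medium. An exact permutation test of the group means, two-sided, gave 0.0857 as its p, where the smallest possible is 0.0286. The share was lower in 4 of 4 same-numbered pairs. Flipping signs within pairs, an exact permutation, gave p = 0.125, the smallest it allows. Nuclear-encoded respiratory chain genes had a median of -0.04 and 0 calls of 81 (9 lower at an unadjusted p under 0.05, 1 by DESeq2, 6 with the block), and ribosomal protein genes -0.03 and 0 of 84 (0 also at an unadjusted p, by DESeq2 and with the block). Of the 96 decreases, 48 had their smallest change in pair 1, and 99 of the 404 increases did.

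**Figure D5:**
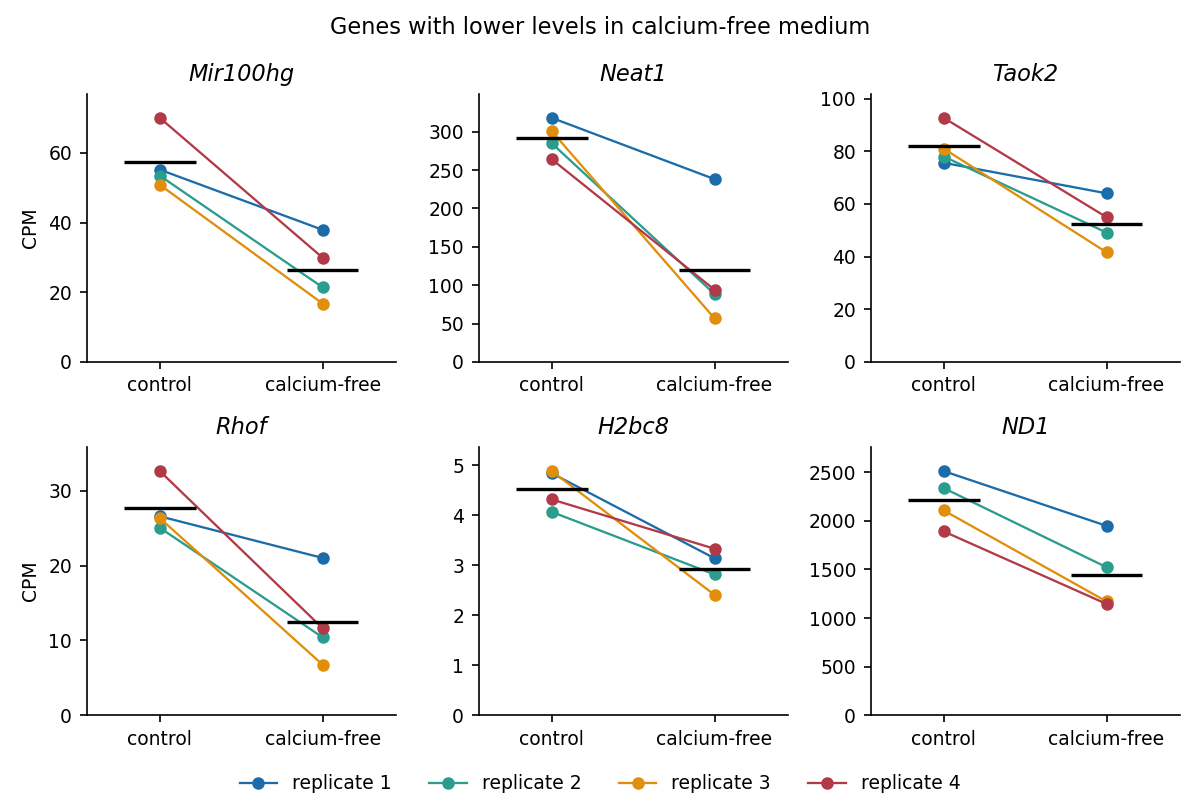
CPM of 6 genes that were lower in calcium-free medium, by library, on axes that start at 0, with lines joining the same replicate number and black bars at group means. Neat1 is at 238 CPM in calcium-free 1, above the 56.7 to 94.0 CPM of calcium-free 2, 3 and 4, and Neat1, Rhof and ND1 were not called.

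Called genes were unevenly spread over kinds of gene. Of 1489 long noncoding RNAs tested, 0.269% rose and 1.81% fell, with a median of -0.16, against 2.76% and 0.442% of 14478 protein-coding genes. With the block 12 long noncoding RNAs were higher and 145 lower (0.806% and 9.74%, against 9.75% and 5.69% of all genes). Among protein-coding genes split into 5 equal classes by summed exon length, the share that rose was 0.863% in the shortest class (204 to 2044 bases), then 1.28%, 2.24% and 3.94%, and 5.49% in the longest (7136 to 155391 bases). The part of gene length in this order was not tested. Zinc finger genes named Zfp rose in 12 of 371 cases and fell in 1 (3.23% and 0.270%, against 2.42% and 0.576% of all genes). With the block 63 were higher and 31 lower (17% and 8.36%, against 9.75% and 5.69%).

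Markers of the labelled cell type were present. All 18 astrocyte markers were measured, with a summed level of 12460 to 15110 CPM in controls and 12900 to 15480 CPM in calcium-free medium, and 0 were called (1 at an unadjusted p under 0.05, 0 by DESeq2; Sox9 higher with the block). In bulk RNA, fewer cells of a type and less RNA per cell cannot be told apart. Microglia markers summed to 193 to 300 CPM and 185 to 271 CPM, with 0 of 15 called (0 also at an unadjusted p and by DESeq2), a median of -0.21 and 5 lower with the block, among them the complement genes C1qa (-0.39 ± 0.23) and C1qb (-0.38 ± 0.24). The 5 are 33.3% of the microglia list, against 5.69% of all genes. Olig2, a factor of the oligodendrocyte lineage that also marks cultured glial precursors, rose from 238, 242, 250 and 230 CPM to 337, 335, 346 and 322 CPM (0.48 ± 0.04, adjusted p = 9.19e-04). No control came near the lowest calcium-free value. The other 7 members of its list tested were not called without the block, and Cspg4 was higher with it. The list summed to 1758 to 1871 CPM in controls and 1785 to 2055 CPM in calcium-free medium. Neuron, progenitor and vascular markers had 0 calls of 11, 10 and 8 (1, 2 and 1 at an unadjusted p under 0.05, and 0, 1 and 0 by DESeq2), and no marker of any list was at 0 in all libraries. With the block Syt1 and Elavl3 of the neuron list, Nes of the progenitor list and Kdr of the vascular list were higher. Sox2 of the progenitor list was lower. The part of these cell types in the results above was not tested.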

How the data were processed

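Poly-A RNA of 12 libraries was sequenced after TruSeq stranded preparation, per the labels, and the 4 calcium-free and 4 control libraries were used. The deposited table holds expected counts per gene, made by the authors with featureCounts 1.6.4 (Subread) and STAR 2.7.2b, besides cutadapt 1.17 and bcl2fastq 2.20.0.422, on build GRCm39, per the submitters' processing notes. The strand setting of the counting is not given in the sources used here, so overlapping and antisense genes are uncertain. Of the values, 14.2% to 15.7% per library were not whole and were rounded. Genes were kept by filterByExpr (minimum count 10), libraries were scaled by TMM, and edgeR 4.0.16 (R 4.3.3, limma 3.58.1) fitted its quasi-likelihood test without a block to these 8 libraries, and was refitted with replicate number as the block. DESeq2 1.42.0 was an alternative. Standard errors were taken from the test statistic. Ratios of same-numbered libraries used CPM plus 0.5. Scripts were tested on simulated data. Tables and plots used Python 3.11.15, numpy 2.4.6, scipy 1.17.1, statsmodels 0.14.6 and matplotlib 3.10.9.

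Deviations from the group means correlated between same-numbered libraries at 0.262, 0.525, 0.446 and 0.873 over genes. Among replicates 1 to 3 differently numbered pairs reached 0.301 to 0.479, and without replicate 4 the same-numbered values were -0.00736, 0.0128 and -0.00165. The values thus show pairing by number for replicate 4 alone. Replicates 1 to 3 were paired by their labels, and the block and pair comparisons rest on that.

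The comparison, the gene lists and the fixed genes were chosen with earlier results of these data known. Named by rule were the called genes with the 15 highest and 15 lowest fold changes, given groups that do not overlap and a mean log2 CPM no less than 1 (predicted genes aside), in each list the 2 genes of smallest p, all called Notch targets and immediate early factors, and a fixed set of calcium and Notch genes. Promoter windows came from RefSeq and their build is not that of the table, so coordinates of the 2 builds were not mixed.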

Additional observations from a re-analysis of the deposited data

Results flagged for a closer look

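For each named gene, 1 library was set against the other 3 of its group, and marked where its gap to the nearest of them took more of the group's whole range than Dixon's critical value for 4 samples allows. This held in 35 of 342 groups, and chance marks about 1 in 20. Of the 35, 27 were libraries of replicate 4, 18 in the control group and 9 in the calcium-free group.

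Control 4 was the lowest of its group, in CPM, for S100a4 (23.4), Mcl1 (146), C1qa (16.3), C1qb (8.87), Stim2 (31.0), Saraf (163), Notch3 (82.5), Atf3 (6.19), Ddit3 (12.1), Rgs16 (43.3) and Cebpd (31.6). It was the highest for Rbm10 (58.9), Skil (42.6), Bub1 (66.7), Notch1 (342), Notch2 (104), Dll1 (20.7) and Arrdc3 (186). Calcium-free 4 was the lowest of its group for Id3 (276), Jun (203), S100a4 (22.5), Cebpd (50.4), Tiparp (66.1) and Dusp4 (58.8), and the highest for Srf (55.5), Dll1 (15.9) and Arrdc3 (112). S100a4, Cebpd, Dll1 and Arrdc3 thus stood apart in replicate 4 in both groups, each in 1 direction.

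The other 8 values were Arc in calcium-free 1 (15.2 CPM, highest), Nr4a1 in calcium-free 1 (28.9 CPM, highest), Rgs1 in calcium-free 2 (2.97 CPM, highest), Trpm7 in calcium-free 3 (69.6 CPM, highest), Cited2 in control 1 (53.6 CPM, highest), Mtf1 in control 1 (17.7 CPM, lowest), Hspa5 in control 3 (804 CPM, lowest) and Cry2 in control 3 (34.9 CPM, highest).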

How the results depend on the processing

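The number of genes higher was 779 by DESeq2, 1082 by DESeq2 with the replicate block, 1625 by edgeR with the replicate block and 253 with upper quartile factors. The number lower was 306, 516 and 948 in the first 3 of these. Replicates 1 to 3 alone with the replicate block, an alternative added after the data were seen, gave 1168 higher and 398 lower. limma-voom, no filter on low counts, a stricter filter and, for genes lower, upper quartile factors stayed within 1.5 times. Leaving out libraries or pairs gave 14 to 1459 genes higher and 0 to 585 lower. The extremes came without replicate 2, where edgeR called 14 and 0 (978 and 494 at an unadjusted p under 0.05), and without replicate 4, and without replicate 3 the numbers were also 14 and 0 (971 and 513). The block ended 1 call of 500, that of Mir100hg, added 2074 and changed no other call. The mitochondrial share differed by -0.75 percentage points, and by -1.01 to -0.62 when libraries were left out.

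Orai3 turned to -0.003 with the stricter filter and to -0.031 with upper quartile factors, Saraf to -0.028 with those factors and to -0.008 in replicates 1 to 3 with the block, and Xbp1 (-0.003) and Pdk1 (-0.02) also with upper quartile factors. With libraries left out, Orai3 ran from -0.044 to 0.054, Saraf from -0.046 to 0.048, Notch3 from -0.003 to 0.183, Hey2 from -0.018 to 0.383, Heyl from -0.076 to 0.641, Egr3 from -0.512 to 0.085, Ddit3 from -0.057 to 0.141, Xbp1 from -0.015 to 0.101, Gja1 from -0.128 to 0.041 and Pdk1 from -0.208 to 0.191. None of these genes was called. The causes were not tested. Of all values of named genes under alternatives, 2637 kept direction and side of the threshold, 235 passed it newly, 485 no longer did and 36 turned. Of list medians under 3 alternatives, 114 moved little and 36 moved further. Upper quartile factors put the median of all genes at -0.037 and turned small medians such as those of the ATF4 list (-0.027), ER chaperones (-0.003), heat shock genes (-0.002) and astrocyte markers (-0.033). With the block and the exon length trend removed, the median of YAP and TEAD targets was 0.115, that of Notch receptors and processing 0.005 and that of growth factor ligands 0.03. At this depth, genes below about 1 CPM, the low histone genes and Heyl among them, rest on few counts.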

Other observations

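In every pair of same-numbered libraries 3139 of the 16663 genes tested were higher and 2586 lower. Some further genes among these are given here. They were chosen after their values were seen, and each was called with the replicate block only. Txnip, a thioredoxin inhibitor that follows cellular glucose, was at 280.3, 269, 251 and 374 CPM in controls and at 181, 174, 155 and 244 CPM in calcium-free medium (log2 fold change -0.64, block adjusted p = 2.1e-07 in the edgeR test). Its relative Arrdc3, an arrestin-domain gene, was at 106, 100.1, 95.8 and 186 CPM and at 54.3, 54.0, 51.6 and 112 CPM (-0.85, 2.8e-07). In both genes the calcium-free library was lower than the control of its number in 4 of 4 pairs, and replicate 4 was the highest of each group.

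Adamts1, a secreted metalloprotease (0.51, block adjusted p = 8.71e-07), Cebpd, a factor of acute responses (0.62, 1.38e-06), and Ereg, an EGF receptor ligand (1.12, 3.45e-04), were higher in 4 of 4 pairs. Vamp1, a vesicle fusion protein, was at -1.24 (adjusted p = 0.0692, and 0.0155 with the block), with pair ratios from -0.53 to -1.71.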
